A study of Mus musculus with 16 samples.

Results

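The Ly6 genes Ly6a, Ly6c1, Ly6c2, Ly6e, Ly6g, Ly6i and Ly6d were examined in peritoneal tumor-associated macrophages (TAMs) sorted by the surface protein Tim-4. These 7 genes were taken by name from the 55604 genes listed in the deposited count files, and 5 of the 7 had enough counts to be tested between Tim-4+ and Tim-4- TAMs. ID8, a mouse ovarian surface epithelial tumor line, was grown in the peritoneal cavity of C57BL/6 mice, and total RNA of Tim-4+ and Tim-4- TAMs was sequenced as 8 libraries, 4 of each subset, numbered as pairs 793, 784, 783 and 779. The 16 deposited samples are the 2 sequencing lanes of each library, and lanes were summed. The study's methods give female mice aged 6 to 8 weeks as those used. The legend of its sequencing figure states that the subsets were taken at 6 to 7 weeks from mice with ID8 tumors. All 8 libraries came from tumor-bearing animals, so there was no tumor-free group.

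The methods describe magnetic bead isolation. Most tumor cells and dead cells were first removed by density gradient, Tim-4+ cells were taken with anti-Tim-4, and Tim-4- TAMs were then taken from the remaining cells with beads against F4/80, a macrophage surface protein. The flow cytometry gate that the study used to define TAMs kept cells positive for the leukocyte marker CD45 and for CD11b, and left out those positive for CD90, a T cell marker, for B220, a B cell marker, or for Gr-1, whose antibody recognizes the Ly6G and Ly6C proteins. Such a gate would remove B and T cells, by Gr-1 also cells stained for Ly6G or Ly6C, and by CD45 mesothelial, fibroblast and endothelial cells. Whether that gate was applied to the cells of these libraries is not given in the sources used here, nor is whether a pair number stands for 1 mouse or for a pool. The main fit has the pair number as a block. Its p-values therefore measure how the difference between subsets varied over these numbered pairs, whether mice or pools.

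Ly6 proteins are small, disulfide-rich proteins of the Ly6/uPAR fold, most of them held at the outer cell membrane by a glycosylphosphatidylinositol (GPI) anchor. Ly-6C, the product of Ly6c2 and of the closely related Ly6c1, marks inflammatory monocytes when it is abundant, and its level falls as monocytes mature into tissue macrophages. Ly6G is the usual surface marker of mouse neutrophils. Ly6a encodes Sca-1, known from hematopoietic stem cells and also carried by lymphocytes, endothelium and stromal cells. Ly6e is widely expressed, is induced by interferon and affects the entry of several viruses. Ly6d is known from early B-lineage progenitors and from squamous epithelium. Several members, Ly6a, Ly6c and Ly6e among them, respond to interferon.

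The 7 genes lie within 397 kb of chromosome 15 (GRCm38, GENCODE M21), a stretch with 25 annotated genes, 14 of them protein coding. In order along the chromosome they are Ly6d at chr15:74762056-74763620 on the minus strand, Ly6e at chr15:74955051-74959905 on the plus strand, Ly6i at chr15:74979534-74983430, Ly6a at chr15:74994877-74998031, Ly6c1 at chr15:75044018-75048830 and Ly6c2 at chr15:75108158-75111970, these 4 on the minus strand, and Ly6g at chr15:75155240-75159126 on the plus strand. No annotated gene overlaps any of them. Counts were made per gene.

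Ly6c1 and Ly6c2 are close copies, and that limits what reads of 50 bases can tell apart. Their coding sequences of 393 bases differ at 9 bases (97.7% identity), and the longest stretch without a difference is 188 bases. The first 90 coding bases are shown because they hold 6 of the 9 differences, with each differing base in capitals. The sequences are of GENCODE M21 transcripts.
Ly6c1: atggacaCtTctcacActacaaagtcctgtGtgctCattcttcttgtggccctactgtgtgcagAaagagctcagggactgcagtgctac
Ly6c2: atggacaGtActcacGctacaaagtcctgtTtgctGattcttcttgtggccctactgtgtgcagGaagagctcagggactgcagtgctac
Of the 50-base words in the coding sequence, 52.0% in Ly6c2 and 58.7% in Ly6c1 occur in no other annotated gene. Over all annotated transcripts, untranslated parts included, the share was 85.5% for Ly6c2, 67.2% for Ly6c1, 81.0% for Ly6a, 95.2% for Ly6i and 99.6% for Ly6g. It was 100% for Ly6e and Ly6d. These shares are of single words, whereas the libraries were sequenced as paired ends, which was not taken into account. The summary lines of 15 of the 16 lane files count reads with more than 1 alignment apart from the genes (9.11 to 24.5% of a lane's reads). How many of these came from Ly6 genes was not tested. The coding sequence of Ly6a was 86.3% identical to that of Ly6i and 81.6% identical to that of Ly6c2, whereas Ly6e shared 50.2 to 53.1% with the other members and Ly6d 49.2 to 53.4%.

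The start regions of the Ly6c genes are shown because these near-identical genes were read at such different levels in the same libraries. The RefSeq promoter table (GRCm38.p6) held 3 of the 7 members, Ly6c1, Ly6c2 and Ly6g. Below are the 250 bases before the RefSeq start site nearest to the GENCODE start, both on the minus strand, chr15:75048838-75049087 for Ly6c1 and chr15:75111972-75112221 for Ly6c2. Capitals mark the motif AGGAAGT, a core recognized by the myeloid factor PU.1.
Ly6c1: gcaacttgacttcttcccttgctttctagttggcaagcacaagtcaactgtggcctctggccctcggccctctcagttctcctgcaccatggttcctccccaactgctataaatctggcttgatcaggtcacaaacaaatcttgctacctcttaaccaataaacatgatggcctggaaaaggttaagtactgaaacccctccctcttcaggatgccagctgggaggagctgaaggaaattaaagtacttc
Ly6c2: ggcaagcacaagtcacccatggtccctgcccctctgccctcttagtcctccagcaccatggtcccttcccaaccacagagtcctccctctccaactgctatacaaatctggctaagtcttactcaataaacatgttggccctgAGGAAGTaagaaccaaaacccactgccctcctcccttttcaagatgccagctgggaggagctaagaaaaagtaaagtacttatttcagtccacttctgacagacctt
The motif stood in the region shown for Ly6c2 and not in that shown for Ly6c1, although the window of another RefSeq start site of Ly6c1 held it. It also stood in the 250 bases before the start site of Ly6g, a gene close to absent in these libraries. Whether the motif bears on the levels was not tested. Searched on both strands, AGGAAGT occurred in 9.35% of 32851 RefSeq promoter windows of 300 bases. The motif TTCNNNGAA, the core of the interferon-gamma-activated site, occurred in 8.30% of windows and in none of those of the 3 members. A match is a match of letters only, and the best local alignment of these windows of Ly6c1 and Ly6c2 was 72.2% identical over 227 columns.

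The libraries held 53527928 to 69594245 counts each. Timd4, which encodes Tim-4 itself, was at 524 to 1743 CPM (counts scaled to library size with TMM factors, which make libraries comparable) in the Tim-4+ libraries and at 1.96 to 84.9 CPM in the Tim-4- libraries, with the highest Tim-4- value in pair 793 (log2 fold change 6.09 ± 1.08 SE, adjusted p = 0.0167, edgeR quasi-likelihood test, Benjamini-Hochberg). One lane of that Tim-4- library of pair 793 lists its genes by symbol with the Timd4 row out of place at the top. The row was put back in its place for the join, and held 2865 counts against 2804 in the library's other lane, which is in the usual order. The 8 macrophage marker genes, among them Adgre1 and Csf1r, were present in every library, but their sum was 43263 to 55698 CPM in Tim-4+ and 20866 to 33359 CPM in Tim-4- libraries, with 5 genes passing as higher and 1 as lower in Tim-4+ TAMs. All 11 mesothelial or epithelial markers passed the test as lower in Tim-4+ TAMs, with a median log2 fold change of -2.25, although 1 of 11 passed without pair 784 (median -2.09) and 1 of 11 without the pair block (median -2.24). Their summed level was 116 to 417 CPM in the Tim-4+ libraries and 470 to 2218 CPM in the Tim-4- libraries.

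Of the 5 tested Ly6 genes, Ly6c2 and Ly6a were called lower in Tim-4+ TAMs, the call being an edgeR adjusted p below 0.05 together with a change of 2-fold or more. These were 2 of 5, and 0 were called higher. By DESeq2, 3 of 5 were called lower, Ly6d being the third, and 0 higher, beside 1440 and 781 of all genes. Among all 16861 genes tested, 5.79% were called lower and 3.80% were called higher by the same rule. With 2 calls among 5 genes, the members' share has little weight of its own, and each gene is described below. On the adjusted p-value alone, whatever the fold, 1 member passed as higher in Tim-4+ TAMs (Ly6e) beside 8.97% of all genes, and Ly6c2 and Ly6a passed as lower beside 8.43%, all at an adjusted p below 0.05. At an unadjusted edgeR p under 0.05, 1 member was higher (Ly6e) and 3 were lower, Ly6d being the third. In none of the 5 did the 4 libraries of one subset all stand above those of the other, which 5.92% of all genes showed with Tim-4- above and 6.84% with Tim-4+ above. Ly6i and Ly6d did not pass, and Ly6c1 and Ly6g had too few counts to be tested. The median log2 fold change of the 5 tested members was -1.06, and that of all genes tested was -0.0012. Over all genes, 641 were called higher and 976 lower. These counts fell to 76 and 63 without pair 784, and to 127 and 80 without the pair block. Counts of list genes given for those settings stand beside that general fall.

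**Figure D1:**
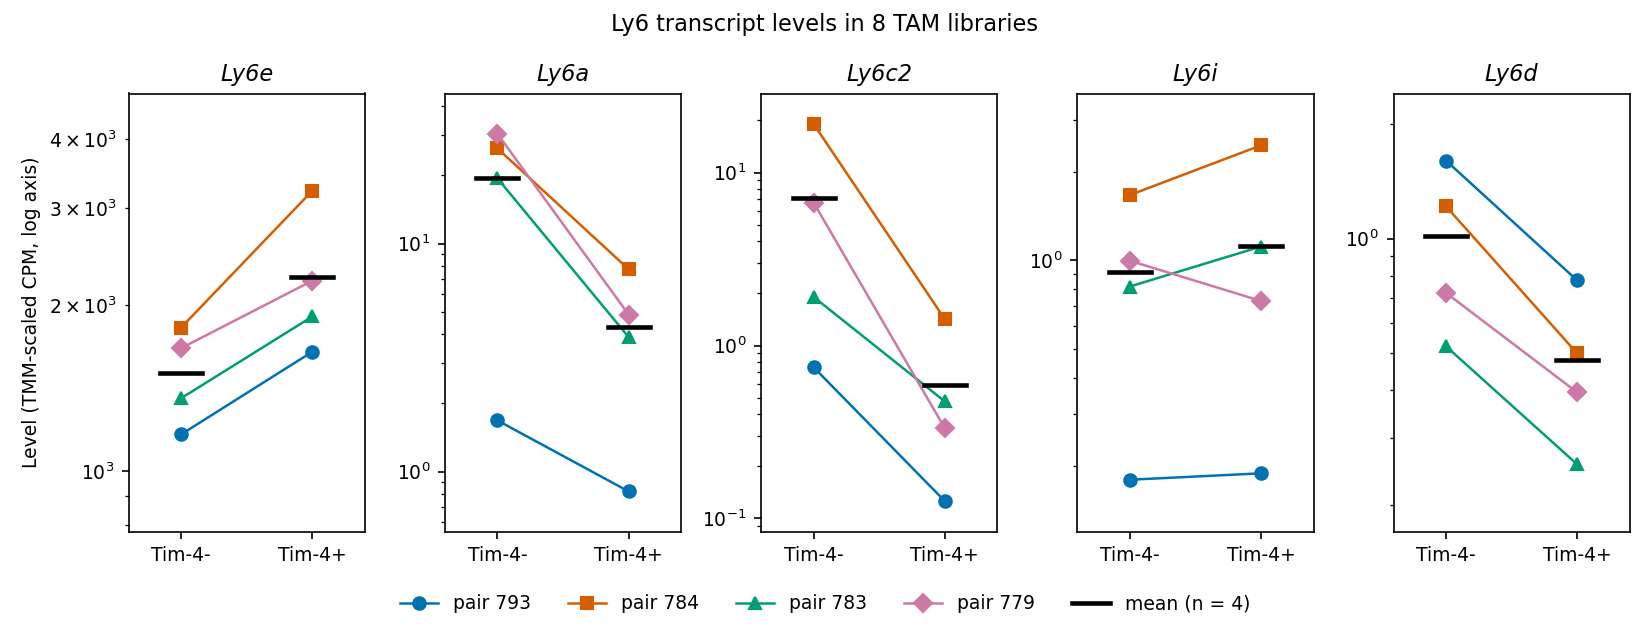
Level of the 5 tested Ly6 genes in each library, as TMM-scaled CPM on log axes that differ between panels, with Tim-4- on the left and Tim-4+ on the right. Lines join the 2 libraries of a pair and black bars are the means of 4 libraries. Ly6a, Ly6c2 and Ly6d lines slope down to Tim-4+ in 4 of 4 pairs, Ly6e lines slope up in 4 of 4 pairs, and Ly6i lines go both ways.

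Ly6c2, which encodes the Ly-6C antigen of inflammatory monocytes, showed the widest difference in the family. In pairs 793, 784, 783 and 779 it was at 0.749, 19.1, 1.91 and 6.70 CPM in Tim-4- TAMs. In Tim-4+ TAMs of the same pairs it was at 0.126, 1.42, 0.475 and 0.333 CPM. Every Tim-4- library stood above the Tim-4+ library of its own pair, but the groups overlapped because the Tim-4- library of pair 793 lay below the Tim-4+ library of pair 784. The Tim-4- mean was 7.11 ± 8.39 CPM and the Tim-4+ mean 0.588 ± 0.573 CPM (SD, n = 4). The fitted level was 9.42-fold higher in Tim-4- TAMs (log2 fold change -3.24 ± 0.43 SE, 95% interval -4.24 to -2.23, adjusted p = 0.00776, edgeR quasi-likelihood test, Benjamini-Hochberg).

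The size of the Ly6c2 difference varied between pairs. The log2 ratio of Tim-4+ to Tim-4-, with a prior count of 2 added, was -2.30 in pair 793, -3.72 in pair 784, -1.94 in pair 783 and -4.20 in pair 779. These ratios rest on few reads in Tim-4+ TAMs, with 6, 71, 26 and 16 counts against 50, 1397, 150 and 437 in Tim-4- TAMs. Without pair 784, the pair with the most Ly6c2, the difference was -2.98 with an adjusted p of 0.0650, and without the pair block it was -3.59 with an adjusted p of 0.0923, so the call was lost in both. In a bulk library, fewer cells that carry Ly6c2 and less Ly6c2 RNA per cell cannot be told apart.

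Ly6a, which encodes Sca-1, was at 1.68, 26.2, 19.3 and 30.3 CPM in Tim-4- TAMs of pairs 793, 784, 783 and 779. It was at 0.819, 7.72, 3.89 and 4.89 CPM in the matching Tim-4+ TAMs. Both libraries of pair 793 were far below the rest of their subset, and its Tim-4- library lay below 3 of the 4 Tim-4+ libraries, so the groups overlapped while each pair kept the same direction. The Tim-4- mean was 19.4 ± 12.6 CPM and the Tim-4+ mean 4.33 ± 2.85 CPM (SD, n = 4). The fitted level was 3.97-fold higher in Tim-4- TAMs (log2 fold change -1.99 ± 0.26 SE, 95% interval -2.60 to -1.38, adjusted p = 0.00776, edgeR quasi-likelihood test, Benjamini-Hochberg).

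The Ly6a ratio was least negative in pair 793, at -1.01 on the log2 scale, and was -1.76, -2.30 and -2.63 in pairs 784, 783 and 779. Pair 793 was also the pair whose Tim-4- library held the most Timd4, in both of its lanes. The Ly6a call, like that of Ly6c2, was lost without pair 784 (-2.06, adjusted p = 0.0574) and without the pair block (-2.16, adjusted p = 0.169). Lower levels in Tim-4+ TAMs in 4 of 4 pairs, as shown by Ly6a, Ly6c2 and Ly6d, occurred in 20.2% of all genes tested.

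**Figure D2:**
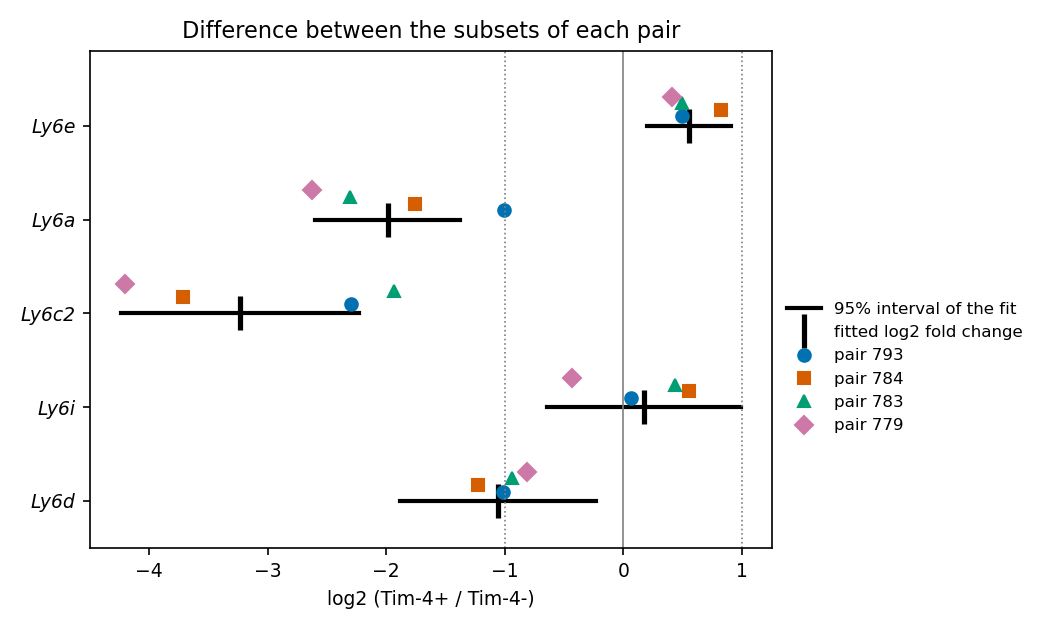
Log2 ratio of Tim-4+ to Tim-4- for each tested Ly6 gene, with 1 symbol per pair, the fitted log2 fold change as a vertical tick and its 95% interval as a bar. The solid line marks no difference and dotted lines mark 2-fold. The intervals of Ly6a and Ly6c2 lie wholly beyond 2-fold, that of Ly6e lies between 0.20 and 0.91, that of Ly6d crosses the 2-fold line and that of Ly6i crosses 0.

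Ly6e was by far the most abundant member and differed in the opposite direction. It gave 97.4 to 99.9% of the counts of the 7 genes in every library, with 77841 to 161183 counts per library. In Tim-4+ TAMs of pairs 793, 784, 783 and 779 it was at 1647, 3224, 1907 and 2214 CPM. In Tim-4- TAMs it was at 1166, 1821, 1356 and 1671 CPM. It was higher in Tim-4+ TAMs in 4 of 4 pairs, as were 22.4% of all genes tested, and highest in pair 784 in both subsets. The groups overlapped, since 1647 CPM in the lowest Tim-4+ library was below 1821 CPM in the highest Tim-4- library.

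The fitted Ly6e difference was 1.47-fold (log2 fold change 0.55 ± 0.15 SE, 95% interval 0.20 to 0.91, adjusted p = 0.0445, edgeR quasi-likelihood test, Benjamini-Hochberg), below the 2-fold threshold. The log2 ratios of the pairs were close together, at 0.50, 0.82, 0.49 and 0.41. This result sat at the edge of the edgeR test, and it was kept in 7 of 13 alternatives and lost in 6. DESeq2 with the pair block gave 0.56 with an adjusted p of 0.000251. By edgeR, the result was lost when any 1 of the 4 pairs was left out (log2 fold change 0.46 to 0.60, adjusted p = 0.0878 to 0.174) and without the pair block (0.58, adjusted p = 0.227). With libraries scaled by total counts alone it was 0.20 with an adjusted p of 0.236, a scaling under which the median of all genes was -0.36.

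Because the other 6 members were scarce, the family's summed counts followed Ly6e. Without Ly6e, the remaining 6 genes summed to 28.5 ± 19.4 CPM in Tim-4- libraries and to 6.59 ± 4.24 CPM in Tim-4+ libraries (SD, n = 4). The family as a whole took 0.123 to 0.280% of a library's counts.

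Ly6i, a close relative of Ly6a, was at 0.189, 2.46, 1.11 and 0.728 CPM in Tim-4+ TAMs of pairs 793, 784, 783 and 779. It was at 0.180, 1.67, 0.815 and 0.997 CPM in Tim-4- TAMs. The subsets overlapped throughout, Tim-4+ was higher in 3 of 4 pairs, and both libraries of pair 793 were the lowest of their subset. The fitted difference was 0.17 ± 0.35 SE on the log2 scale, with a 95% interval of -0.64 to 0.99 and an adjusted p of 0.773 (edgeR quasi-likelihood test, Benjamini-Hochberg). This interval leaves room for a difference of close to 2-fold upward, and its sign turned to -0.19 when libraries were scaled by total counts.

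Ly6d, known from B-lineage progenitors and squamous epithelium, was at 1.60, 1.22, 0.522 and 0.721 CPM in Tim-4- TAMs of pairs 793, 784, 783 and 779. It was at 0.777, 0.500, 0.256 and 0.395 CPM in Tim-4+ TAMs. Each pair had the same direction, with log2 ratios of -1.01 to -1.23 in the first and second pairs and -0.94 and -0.82 in the others, while the groups overlapped. The fitted value was -1.06 ± 0.36 SE with a 95% interval of -1.88 to -0.23, and it missed the threshold at an adjusted p of 0.0787 (edgeR quasi-likelihood test, Benjamini-Hochberg). It passed with DESeq2 (-1.06, adjusted p = 0.0291) and under scaling by total counts (-1.41, adjusted p = 0.0237). Unlike Ly6a and Ly6c2, Ly6d was not lowest in pair 793, where it was highest in both subsets.

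Ly6c1 and Ly6g were close to absent. Ly6c1, the copy of the Ly-6C gene known from endothelium and T cells, had 0, 0, 8 and 0 counts in Tim-4+ TAMs of pairs 793, 784, 783 and 779 and 0, 9, 0 and 13 counts in Tim-4- TAMs. Ly6g, in the same order, had 0, 5, 0 and 1 counts in the Tim-4+ libraries against 0, 1, 3 and 0 in the Tim-4- libraries. A count of 0 allows a level of up to 3 counts, which is 0.0382 to 0.0630 CPM in these libraries, by counting error only. In a fit without a count filter, Ly6c1 was at -1.97 ± 2.51 SE (adjusted p = 0.790) and Ly6g at 0.88 ± 2.42 SE (adjusted p = 0.890), so differences of this size were not detectable at this depth. Over the 8 libraries Ly6c2 held 2153 counts and Ly6c1 30.

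Levels can be compared between genes only per length. In Tim-4+ TAMs the order in CPM per kb of annotated exon was Ly6e (594 ± 183), Ly6a (3.59 ± 2.36), Ly6i (0.971 ± 0.838), Ly6d (0.648 ± 0.297), Ly6c2 (0.215 ± 0.209), Ly6g (0.0321 ± 0.0505) and Ly6c1 (0.0218 ± 0.0436; SD, n = 4). Ly6i and Ly6d, Ly6c2 and Ly6g, and Ly6g and Ly6c1 were neighbours whose means differed by less than the larger of their SDs. In Tim-4- TAMs the order was Ly6e (397 ± 78.5), Ly6a (16.1 ± 10.5), Ly6c2 (2.60 ± 3.06), Ly6d (1.37 ± 0.656), Ly6i (0.791 ± 0.529), Ly6c1 (0.0481 ± 0.0585) and Ly6g (0.0138 ± 0.0191). There, Ly6c2 and Ly6d, Ly6d and Ly6i, and Ly6c1 and Ly6g differed by less than the larger SD. Ly6c2 therefore ranked the third in Tim-4- and the fifth in Tim-4+ TAMs. With the length of the longest transcript instead, Ly6g and Ly6c1 changed places in Tim-4+ TAMs and the other positions stayed.

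**Figure D3:**
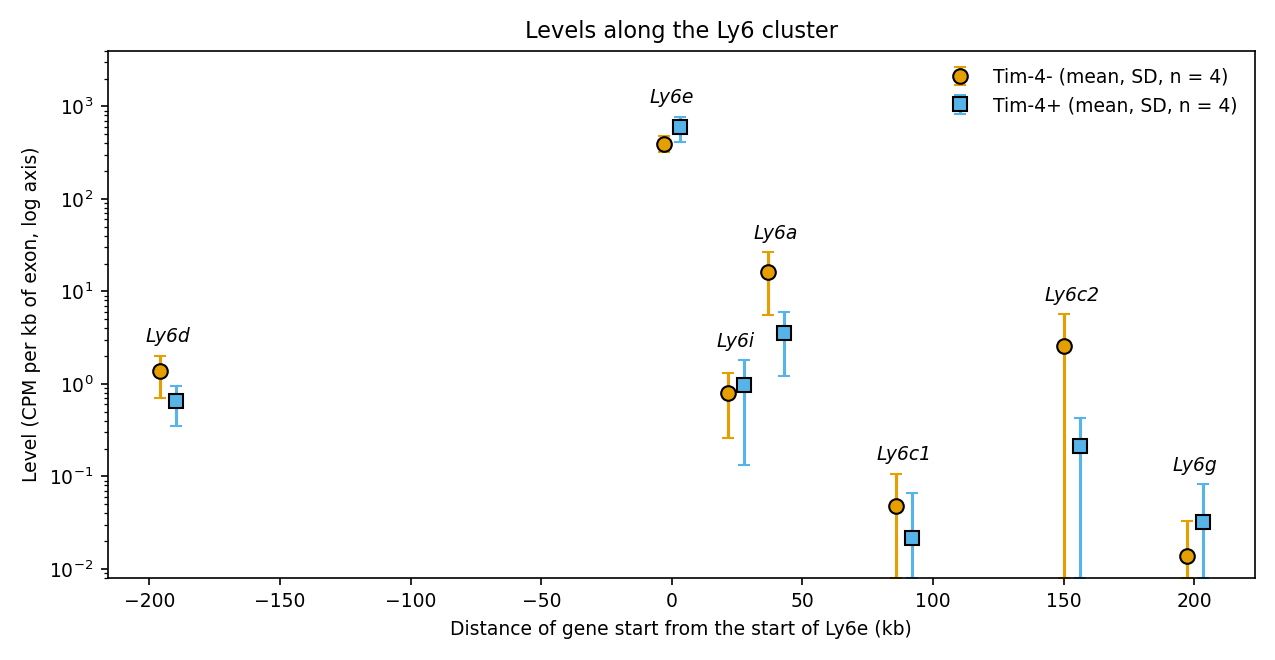
Mean level of the 7 Ly6 genes in each subset, in CPM per kb of exon on a log axis, against the distance of each gene's start from that of Ly6e in kb. Circles (Tim-4-) and squares (Tim-4+) are drawn slightly apart for sight, and bars are SDs over 4 libraries that run to the lower edge of the plot where the SD exceeds the mean. Ly6e stands at 594 and 397 CPM per kb, above every neighbour, and Ly6c2 stands at 2.60 in Tim-4- and 0.215 in Tim-4+ TAMs beside a nearly silent Ly6c1.

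The scarce members Ly6c2, Ly6a and Ly6i also varied widely between mice or pools of the same subset. Among Tim-4- libraries the highest Ly6c2 level exceeded the lowest by 4.50 on the log2 scale, a range at or above that of 99.7% of all genes tested, and Ly6a ranged by 4.10 (99.5%). Ly6i ranged by 2.66 in Tim-4- (96.3%) and 3.15 in Tim-4+ TAMs (98.6%). Ly6e was steadier, with 0.64 in Tim-4- (35.4%) and 0.97 in Tim-4+ TAMs (56.1%). Ly6d, also scarce, ranged by 1.45 in Tim-4- (76.7%) and 1.30 in Tim-4+ TAMs (71.0%). The median gene ranged by 0.85 and 0.86. In the Tim-4- libraries Ly6a held 112 to 1978 counts, Ly6c2 50 to 1397 and Ly6i 12 to 122, and the part of counting error in these ranges was not tested.

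The genes whose log2 levels followed a member most closely over the 8 libraries were sought among the 8768 genes that averaged 10 CPM or more. The 8 points share subset, pair and scaling, so the correlations describe these libraries only. Ly6e ran closest to Pdcl3 (Pearson r = 0.968), Zbp1 (0.963) and Galnt11 (0.957), of which Zbp1 is an interferon-induced nucleic acid sensor. Ly6i ran closest to Plscr1 (0.959), Gdpd1 (0.953) and Ifit2 (0.922), with Plscr1 and Ifit2 known as interferon-induced genes. Ly6a ran closest to Rnd1 (0.971), Ttc9c (0.966) and Paip1 (0.961), and Ly6c2 to Pex2 (0.983), Nudcd1 (0.982) and Selenoi (0.982).

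Interferon-stimulated genes were described beside the Ly6 genes because several members are known to respond to interferon. Of 24 type I interferon-stimulated genes tested, 7 passed as higher in Tim-4+ TAMs, 1 passed as lower and 16 did not pass, and their median log2 fold change was 0.16. With scaling by total counts 2 passed as higher and 5 as lower (median -0.19, where all genes had -0.36), without pair 784 there were 2 and 0, and without the pair block 0 and 0. Of the 4 most abundant, Irf7, which encodes the factor that amplifies type I interferon, was higher at 1.13 ± 0.14 SE (adjusted p = 0.00637, edgeR quasi-likelihood test, Benjamini-Hochberg), while Oasl2 (0.00), Oas2 (0.31) and the tetherin gene Bst2 (-0.33) did not pass. The list's summed level in pairs 793, 784, 783 and 779 was 1641, 4198, 1318 and 2556 CPM in Tim-4+ and 1312, 3066, 1277 and 1870 CPM in Tim-4- TAMs. Pair 784 was thus highest in both subsets, as it was for Ly6e, Ly6c2 and Ly6i, and for Ly6a within Tim-4+ TAMs. The part of the interferon-stimulated genes in the Ly6 values was not tested.

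Of 14 genes induced by interferon-gamma, 1 passed as higher in Tim-4+ TAMs and 3 as lower, with a median of 0.03, and 0 passed either way without pair 784 or without the pair block. The 4 most abundant were Irf1 (0.03), Gbp2 (0.28) and Gbp3 (0.16), none of which passed, and the PD-L1 gene Cd274, which passed as higher at 0.87 ± 0.20 SE (adjusted p = 0.0282, edgeR quasi-likelihood test, Benjamini-Hochberg). Those lower were Ciita, the master regulator of MHC class II genes (-1.78), Cxcl9 (-0.88) and Irgm1 (-0.40).

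Other classical monocyte markers did not move with Ly6c2 as a block. Of the 14 on the list, 3 passed as lower in Tim-4+ TAMs and 5 as higher. Without pair 784 there were 2 and 0, without the pair block 1 and 1, and under scaling by total counts 5 and 5. Ccr2, the receptor that draws Ly-6C-high monocytes from the marrow, was at 114 to 142 CPM in every Tim-4- library and at 5.94 to 15.9 CPM in every Tim-4+ library (log2 fold change -3.61 ± 0.21 SE, adjusted p = 0.000829, edgeR quasi-likelihood test, Benjamini-Hochberg). Ccr2 therefore did not overlap between the subsets, and it was nearly level across the Tim-4- libraries in which Ly6c2 varied. Ms4a4c, a monocyte gene, was at 11.3, 102, 13.3 and 42.4 CPM in Tim-4- TAMs of pairs 793, 784, 783 and 779, the same order of pairs as Ly6c2, and differed by -1.60 ± 0.13 SE (adjusted p = 0.00239). Chil3 differed by -1.75 and Plac8 by -0.86, the latter not passed. Fn1, Hp, Itga4, Ifitm6 and Smpdl3a passed as higher, at 0.96 to 1.54.

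Neutrophil genes were listed because Ly6G marks these cells. S100a8 was at 1.39 to 2.89 CPM, S100a9 at 0 to 1.01 CPM and Cxcr2 at 0.0208 to 0.128 CPM over the 8 libraries. Csf3r, a receptor that macrophages also carry, was at 85.2 to 366 CPM, Lcn2 at 1.78 to 135 CPM with its highest value in Tim-4+ TAMs of pair 784, and Mmp9 at 2.44 to 13.4 CPM. Of 6 list genes tested, 3 passed as higher in Tim-4+ TAMs, Csf3r (1.17), Lcn2 (1.82) and Mmp8 (2.73), and 0 as lower. The list of 14 summed to 271 to 508 CPM in Tim-4+ and to 92.8 to 208 CPM in Tim-4- libraries. Ly6g and Cxcr2 were thus at or near 0 in both subsets, whereas S100a8 was at 1.39 CPM or more in every library and S100a9 reached 1.01 CPM.

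Markers of other cells that can carry Sca-1 or Ly6d also differed between subsets. Summed mesothelial or epithelial markers were at 470, 1417, 951 and 2218 CPM in Tim-4- TAMs of pairs 793, 784, 783 and 779, the same order of pairs as Ly6a. In Tim-4+ TAMs they were at 116, 208, 417 and 249 CPM. The order differed there, with Ly6a highest in pair 784 and these markers highest in pair 783. Ly6d was highest in pair 793 in both subsets, where these markers were lowest. Summed fibroblast markers were at 49.9, 162, 80.0 and 173 CPM in Tim-4- TAMs and at 19.5, 35.4, 90.1 and 24.7 CPM in Tim-4+ TAMs. They were lower in Tim-4+ TAMs in 3 of 4 pairs and higher in pair 783, with Dcn as 1 gene of 5 that passed as lower. Summed endothelial markers were at 20.8, 42.4, 31.6 and 57.7 CPM in Tim-4- TAMs, again the order of pairs of Ly6a. In Tim-4+ TAMs they were at 8.69 to 23.0 CPM, lower in 4 of 4 pairs and highest in pair 783. Of 6 endothelial genes tested, Esam passed as lower and Egfl7 as higher, and Cldn5 was at 0 in every library. The part of these cells in the Ly6a difference and in the Ly6d values was not tested.

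Of 5 T cell markers tested, 1 passed as lower in Tim-4+ TAMs (Cd4, which macrophages can also express). Of 6 B cell markers tested, 2 passed as lower, Ighm and Cd79b. The B cell list summed to 63.5, 71.2, 37.9 and 48.5 CPM in Tim-4- and to 48.5, 44.3, 17.8 and 24.3 CPM in Tim-4+ TAMs, lower in Tim-4+ in 4 of 4 pairs and lowest in pair 783 in both subsets, as was Ly6d. In Tim-4- TAMs the B cell list was highest in pair 784 and Ly6d in pair 793. The study's TAM gate would leave B cells out, and their part in the Ly6d values was not tested.

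**Figure D4:**
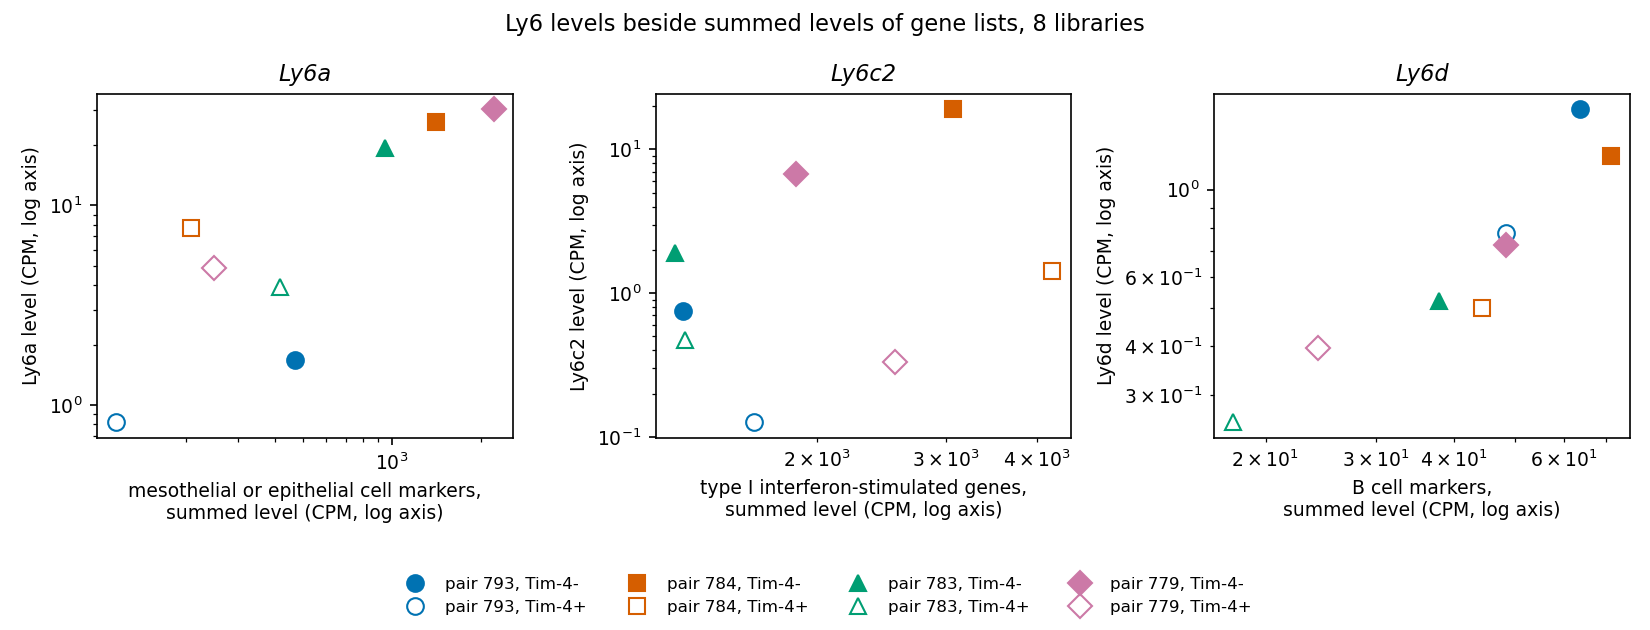
Levels of Ly6a, Ly6c2 and Ly6d in 8 libraries against the summed level of a list of genes in the same library, all in CPM on log axes. Filled symbols are Tim-4- and open symbols are Tim-4+ libraries, with 1 colour and shape per pair. Ly6a in Tim-4- TAMs runs from 1.68 to 30.3 CPM as mesothelial or epithelial markers run from 470 to 2218 CPM. In Tim-4+ TAMs Ly6a is highest in pair 784 and these markers are highest in pair 783. For Ly6c2 and the interferon-stimulated genes, pair 784 is highest in each subset. Ly6d is lowest in pair 783 in each subset, as are the B cell markers.

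The remaining genes of the Ly6 cluster were largely silent. Of 14 listed, 13 were in the files and 7 had 0 counts in every library, namely Ly6f, Ly6l, Gml, Gml2, Slurp1, Lypd2 and Gpihbp1. Ly6k had 0 to 5 counts in a library and Psca 5 counts in 1 Tim-4+ library alone. Only 2 were tested and neither passed, Lynx1, a modulator of nicotinic receptors, at 1.33 ± 0.44 SE (adjusted p = 0.0784) and 2010109I03Rik at -1.01 ± 0.54 SE (adjusted p = 0.231) (edgeR quasi-likelihood test, Benjamini-Hochberg). Of the Ly6/uPAR-fold genes elsewhere in the genome, 6 of 19 were tested. Plaur, the urokinase receptor, was higher in Tim-4+ TAMs (1.08 ± 0.16 SE, adjusted p = 0.00840) and Tex101 was lower (-2.28 ± 0.42 SE, adjusted p = 0.0138), whereas Lypd6 (-0.96) and the complement inhibitor gene Cd59a (0.51) did not pass.

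Genes that build and attach the GPI anchor, on which most Ly6 proteins depend, stood near the median of all genes. Of 30 tested, 2 passed as higher in Tim-4+ TAMs, Pigt and Pigx, 1 passed as lower, Pigw, and 27 did not pass, with a median of -0.08. These counts shifted with the setting, to 0 higher and 10 lower under scaling by total counts (median -0.43, where all genes had -0.36), and to 0 and 0 without the pair block, without pair 793 or without pair 784. The 4 most abundant were Pigt, a subunit of the transamidase that attaches the anchor (0.59 ± 0.15 SE, adjusted p = 0.0371, edgeR quasi-likelihood test, Benjamini-Hochberg), Pigs (0.44), Pigq (0.10) and Pigk (0.05), the last 3 without passing. None of the 30 reached 2-fold with a passing p-value.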

How the data were processed

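The authors isolated TAMs from peritoneal washes, extracted RNA with Trizol per the labels, removed ribosomal RNA, made stranded total RNA libraries and sequenced paired ends of 50 cycles. The submitters' processing notes name FastQC 0.11.3, TopHat2 2.0.13, Cufflinks and Cuffdiff 2.2.1 with GRCm38/mm10, whereas the methods name hg19. The read counter and its strand setting are not given in the sources used here. The deposited values are raw counts per gene, 1 file per lane. One lane (Tim-4-, pair 793) lists symbols in place of identifiers, with the Timd4 row moved to the top, and was joined by row order to the other lane of its library (96.9% of 53618 symbols matched). Symbols were found for 98.4% of identifiers.

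The 2 lanes of each library were summed, since they are technical repeats. Genes reaching 10 counts in 4 or more libraries were kept. Ratios of single pairs and likeness used log2 CPM with a prior count of 2. edgeR 4.0.16 (R 4.3.3) fitted TMM-scaled counts by the quasi-likelihood test with the pair number as a block. Genes were called at a Benjamini-Hochberg adjusted p under 0.05 over 16861 genes and at least 2-fold. Same-numbered libraries deviated together (correlations 0.277 to 0.498 in the 4 pairs), and the labels number the pairs. The script was tested on simulated data. DESeq2 1.42.0 and other settings served as alternatives.

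The members and gene lists were chosen with earlier results of these data known. All 7 members are named, with the 4 most abundant genes of each of the 5 gene lists (marker lists apart), the 3 genes most like each member that averaged 1 CPM or more, and Timd4. Other list and marker genes named (Ccr2, Ms4a4c, Chil3, Plac8, S100a8, S100a9, Csf3r, Cxcr2, Lcn2, Mmp8, Mmp9, Dcn, Esam, Egfl7, Cldn5, Adgre1, Csf1r, Cd4, Ighm, Cd79b, Ciita, Cxcl9, Irgm1, Pigx, Pigw and the higher monocyte markers) were chosen after their values were seen. Marker lists of dendritic cells, plasmacytoid dendritic cells, natural killer cells and non-classical monocytes passed as higher and lower in 1 and 2 of 8, 0 and 0 of 4, 0 and 0 of 1, and 2 and 4 of 8 tested genes. At an edgeR p under 0.05 without adjustment, 1 plasmacytoid gene was higher and 0 natural killer genes differed. Among the 4 resident peritoneal macrophage markers is Timd4, the gene of the protein used for sorting. All 4 passed as higher, but 3 under scaling by total counts, 2 without the pair block and 1 without pair 784.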

Additional observations from a re-analysis of the deposited data

Results flagged for a closer look

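Ly6c1 in the Tim-4+ library of pair 783 stood apart from the other Tim-4+ libraries, at 0.146 CPM (8 counts) against 0 in the other 3. With 3 libraries at 0, any count above 0 in the remaining one would have stood apart in the same way, so the value is given as a description.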

How the results depend on the processing

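Ly6a and Ly6c2 kept their direction under all 13 alternatives (log2 fold change -2.35 to -1.75 and -3.73 to -2.86). Both calls were lost without the replicate block, where 0 members were called lower, and without pair 784, so the number of members called lower was 0 to 2 when each pair was left out in turn. With DESeq2 and under scaling by total counts it was 3, Ly6d being the third. The number called higher was 0 in every setting. In the main fit Ly6e passed on p (edgeR, unadjusted p = 0.00712, adjusted p = 0.0445) but was below the 2-fold threshold. Over all genes, the fit without the pair block called 127 higher and 80 lower, against 641 and 976 with it. Scaling by total counts called 398 higher and 1938 lower, and gave Ly6i as -0.19. Leaving out 1 pair at a time called 76 to 798 genes higher and 63 to 1533 lower, with the lowest counts of both without pair 784 and, next, 270 and 274 without pair 779. Without pair 793, 433 genes were called lower. The cause of these changes was not tested, beyond the fewer libraries in the fits that leave out a pair. Ly6d, absent under the filter at 50 counts, was run in 12 alternatives. Per kb of longest transcript, Ly6e was at 986 CPM in Tim-4+ and 659 CPM in Tim-4- TAMs. Depth limits Ly6c1 and Ly6g, and few counts limit Ly6c2 in Tim-4+ TAMs.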
